A study of Mus musculus with 6 samples.

Results

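The genes described here encode the machinery of mitosis: the cyclins and kinases that start it, the checkpoint that times it, and the kinetochore, spindle and condensin proteins that move and pack the chromosomes. They were chosen by name, as all probe sets annotated with 1 gene symbol whose symbol is among 44 mitosis genes. The array held such probe sets for 43 of the 44, 98 probe sets of 45101 in all. Cyclin B1, Ccnb1, was named by 1 probe set that carried a further symbol, so it has no value here. Of the 98 probe sets 78 lay above the filter on low values, and they represented 42 genes of 12511 tested. Cdc25c, a phosphatase that activates CDK1, had signals of 1.83 to 42.4 over its probe sets and arrays and did not pass the filter.

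Expression was measured in resident macrophages of the peritoneal cavity, sorted as CD11b-high and MHCII-low/negative cells. The Gata6-KO group came from 7-week-old mice with a conditional, floxed deletion of the transcription factor gene Gata6, and the Gata6-WT group from wild type mice of the same age. Each group had 3 arrays, and each array a pool of 2-3 mice. Neither the Cre driver nor the deleted stretch of Gata6 is named in the labels. Probe set signals are linear intensities, and differences are Gata6-KO minus Gata6-WT of log2(signal + 16), tested with limma in 1 fit over 27022 probe sets with Benjamini-Hochberg adjustment. A gene was called at an adjusted p under 0.05, and for each gene the brightest tested probe set, by mean log2 signal, stands for the gene.

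Gata6 itself was lower in Gata6-KO by its brightest probe set, at 3497 ± 828 against 6372 ± 938 (SD, n = 3, limma adjusted p = 0.0113), and by another, at 180 ± 6.47 against 423 ± 76.6. The last of its probe sets stood at 1758 ± 399 and 1775 ± 443, and whether any lies in the deleted stretch is not known here. The macrophage markers Lyz2, Csf1r and Itgam were at 72536 ± 11571, 55393 ± 7553 and 11393 ± 3358 in Gata6-WT and 71833 ± 6910, 57372 ± 5147 and 13035 ± 850.2 in Gata6-KO. Adgre1, Fcgr1 and Cd68 were lower in Gata6-KO and Mertk was higher. Summed signals of 5 B cell markers ran from 319 to 355 in Gata6-KO and 243 to 367 in Gata6-WT, and those of 5 T and NK cell markers from 184 to 216 and 172 to 294. The summed signal of 5 neutrophil markers was 499 to 872 in Gata6-KO and 995 to 1736 in Gata6-WT. That gap lay in S100a8, at 488 ± 186 against 1111 ± 332 (called lower), while Elane and Ngp were at 72.1 and 84.0 against 76.7 and 89.0 by mean, and Camp and S100a9 were under the filter. Summed signals of the mast cell (5), eosinophil (4), mesothelial (5), fibroblast (5) and erythroid (2) markers stayed under 421 on every array. Dendritic cell markers (6) summed to 919 to 1930 in Gata6-KO and 796 to 1710 in Gata6-WT, with opposite calls among them. Cd209a was lower, at 117 ± 35.9 against 658 ± 419 (adjusted p = 0.0102), and the MHCII gene H2-Ab1 was higher, at 1030.4 ± 442 against 419 ± 108 (adjusted p = 0.0277). The monocyte list had 2 markers on the array. Ccr2 was higher in Gata6-KO, at 4591 ± 4378 against 132 ± 46.6, whereas the brightest Fn1 probe set did not pass (log2 -0.22) and its other one was called lower (log2 -1.201, adjusted p = 0.00332). The part of these markers in the differences below was not tested. In both genotypes replicate 1 had male-type expression, with Xist at 102 and 113 against at least 11158 on the other 4 arrays.

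In most adult tissues cells enter mitosis from G2 when CDK1, bound to cyclin A or B, is activated by CDC25 phosphatases and restrained by WEE1-type kinases. Condensins compact the chromosomes, kinetochores attach them to spindle microtubules, and the spindle checkpoint holds back CDC20 and the anaphase promoting complex until every chromosome is attached. The genes are largely silent in resting cells and are switched on together in G2 by the MuvB complex with MYBL2 and FOXM1. Resident peritoneal macrophages can renew by dividing in place, and at rest few of them are in cycle.

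Promoter sequence shows an element that many of these genes carry. The cell cycle genes homology region, or CHR, is the element that MuvB binds, with the letters TTTGAA or TTCGAA, and CCAAT boxes upstream of it bind the factor NF-Y. RefSeq promoter windows (GRCm38.p6, 250 bases before to 50 bases after the gene start) were available for 39 of the 44 genes. Within 50 bases of the start, on either strand, CHR letters occurred in 24 of the 39 genes (61.5%) and in 6.12% of all 27025 genes of the table. Over the whole window the shares were 69.2% and 21.7% for CHR letters, 71.8% and 41.1% for CCAAT, and 61.5% and 8.61% for both together. A CHR match can share a base with a CCAAT match, and a match is of letters only. The windows of Cdc25b, the mitosis gene that rose, and of Cdk1, Plk1 and Top2a, the start kinase, a spindle kinase and a chromosome enzyme of the set, are shown for their CHR and CCAAT letters. CHR and CCAAT letters on either strand are in capitals, so CCAAT also appears as ATTGG and TTTGAA as TTCAAA.
Cdc25b, chr2:131186698-131186997, plus strand: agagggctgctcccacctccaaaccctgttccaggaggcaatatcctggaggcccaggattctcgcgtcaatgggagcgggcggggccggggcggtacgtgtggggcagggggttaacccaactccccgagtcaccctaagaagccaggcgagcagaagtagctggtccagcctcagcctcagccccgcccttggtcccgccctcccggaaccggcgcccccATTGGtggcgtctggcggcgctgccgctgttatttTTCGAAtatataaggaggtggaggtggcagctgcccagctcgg
Cdk1, chr10:69352863-69353162, minus strand: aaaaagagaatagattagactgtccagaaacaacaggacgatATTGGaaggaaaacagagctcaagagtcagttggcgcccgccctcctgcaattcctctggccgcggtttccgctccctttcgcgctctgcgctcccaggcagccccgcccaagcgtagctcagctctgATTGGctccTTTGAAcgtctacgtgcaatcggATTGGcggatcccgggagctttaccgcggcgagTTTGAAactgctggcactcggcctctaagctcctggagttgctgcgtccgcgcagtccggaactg
Plk1, chr7:122159185-122159484, plus strand: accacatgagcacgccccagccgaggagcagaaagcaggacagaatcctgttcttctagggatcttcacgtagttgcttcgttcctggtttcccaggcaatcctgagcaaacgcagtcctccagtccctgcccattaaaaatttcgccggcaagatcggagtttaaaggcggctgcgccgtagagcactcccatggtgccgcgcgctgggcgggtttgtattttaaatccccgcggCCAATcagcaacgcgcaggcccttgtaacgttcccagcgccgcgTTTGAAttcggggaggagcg
Top2a, chr11:99024140-99024439, minus strand: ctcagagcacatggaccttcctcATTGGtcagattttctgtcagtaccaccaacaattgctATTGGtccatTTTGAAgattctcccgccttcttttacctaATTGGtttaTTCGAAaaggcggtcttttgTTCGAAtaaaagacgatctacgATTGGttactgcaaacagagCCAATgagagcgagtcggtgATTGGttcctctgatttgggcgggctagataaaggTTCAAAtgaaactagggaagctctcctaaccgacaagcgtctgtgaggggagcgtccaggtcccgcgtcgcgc
Counting the start as 1 and the base before it as -1, the Cdc25b window has its CHR letters from base 8 and its CCAAT letters from base -28. Those of Plk1 begin at 31 and -14. The Cdk1 window has CHR letters from -71 and -15, and the Top2a window from -179, -140, -120 and -23, with 6 CCAAT matches from -227 to -58. The tested members with CHR letters near the start numbered 24 and had a median log2 difference of -0.19, against -0.25 for the 14 without. Of all 439 tested genes with CHR letters near the start, 25 were called higher and 29 lower (12.3%), beside 12.7% of the 10157 tested genes in the promoter table.

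Most mitosis genes were not called different between Gata6-KO and Gata6-WT macrophages. Of the 42 tested genes Cdc25b rose, Smc4 fell, and 40 did not pass. That is 1 gene higher where 5.61% of all genes tested were called higher, and 1 lower where 7.46% were called lower. The median log2 difference was -0.21, beside -0.04 over all 12511 genes, and 33 of the 42 differences lay below 0, beside 53.8% of all genes. The individual differences ran from -0.70 to 0.95. All 3 Gata6-KO arrays lay above or below all Gata6-WT arrays for 5 of the 42 genes (11.9%): 2 above and 3 below, beside 34.4% of all genes (15.0% above and 19.4% below). At an unadjusted limma p under 0.05, 1 gene was higher, Cdc25b, and 4 were lower: Smc4, Ncaph, Cdc20 and Top2a. Of all 12511 genes 1489 were higher and 1993 lower at that level, a larger share in each direction. The members' median signal of 188 was below that of all tested genes, 501, and the median half-width of the 95% intervals was wider, 0.57 against 0.41 on the log2 scale. Those intervals lay wholly within a 2-fold change either way for 28 of the 42 genes (66.7%), as they did for 69.1% of all genes. In RNA of sorted cells a smaller share of dividing cells and less RNA per dividing cell cannot be told apart.

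**Figure D1:**
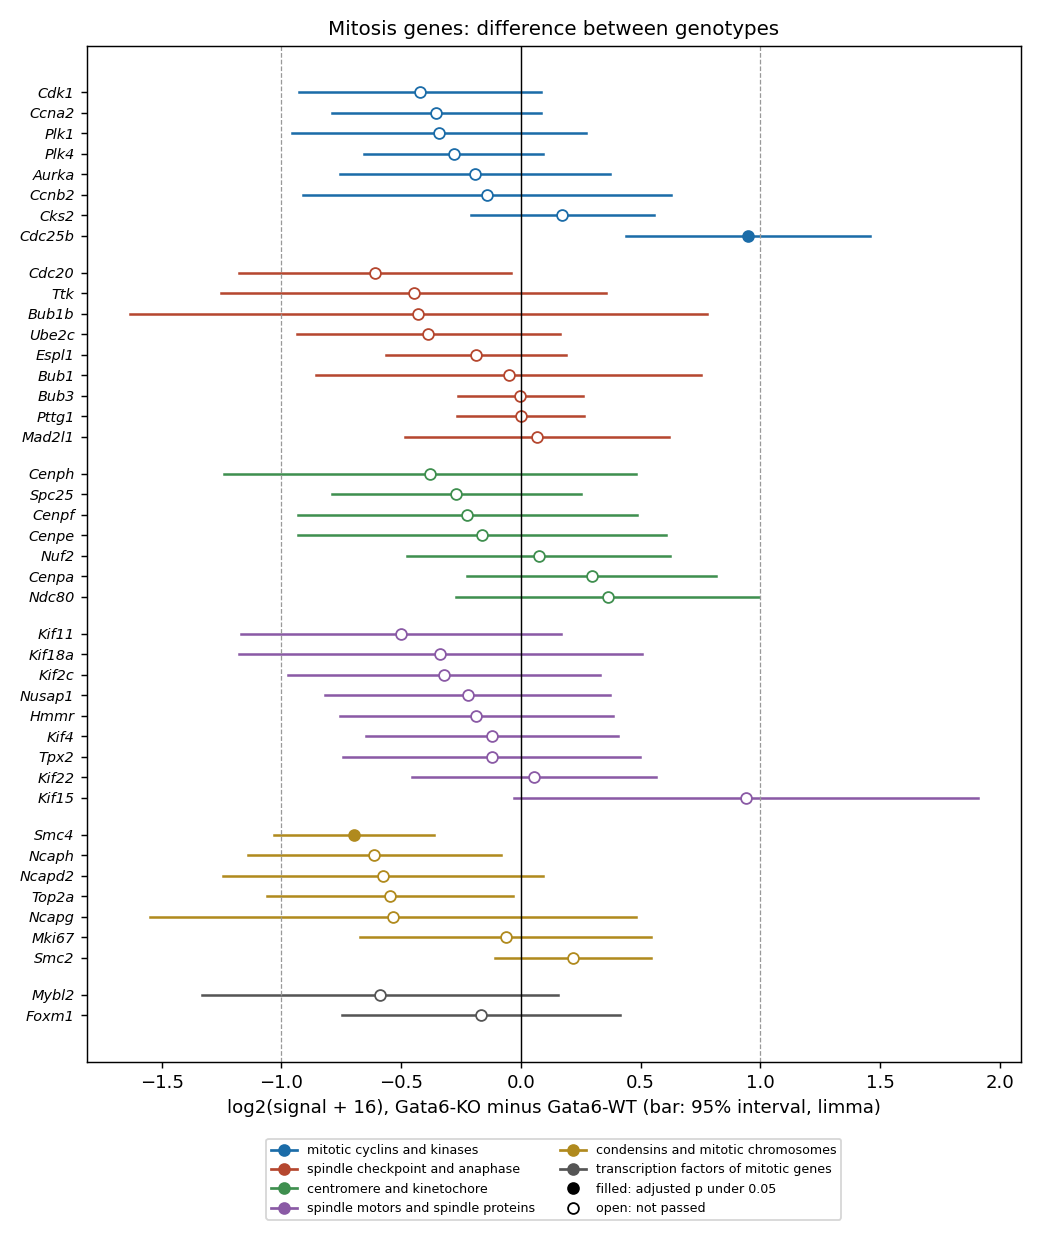
Differences between genotypes for the 42 tested mitosis genes, with log2(signal + 16) in Gata6-KO minus Gata6-WT on the horizontal axis and genes grouped by role. Points are limma estimates with 95% intervals from 3 arrays per genotype, dashed lines mark 2-fold, and the 2 filled points are Cdc25b at 0.95 and Smc4 at -0.70.

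How far the members stood below 0 depended on single wild type arrays. The median log2 difference was -0.14 without Gata6-WT replicate 1 and -0.36 without Gata6-WT replicate 2, with 28 and 32 of the 42 genes below 0. Within the replicates 2 and 3, the female-type arrays, it was -0.14 with 26 genes below 0, and in the male-type pair of replicate 1 it was -0.35 with 32 below 0. Over all genes the medians of the 2 types were -0.05 and -0.00, with 55.4% and 50.4% below 0. The interaction of sex type and genotype was called for 0 of 27022 probe sets by limma. In that limma fit 2 mitosis genes, Ccnb2 and Ube2c, had an unadjusted p under 0.05, each with an adjusted p of 1. With 1 male-type array per genotype this gives no ground to call the types alike.

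The wild type arrays differed more among themselves than the Gata6-KO arrays did. The median within-group SD of the mitosis genes was 0.38 in Gata6-WT and 0.23 in Gata6-KO on the log2 scale, and over all genes 0.20 and 0.19. Of the 3 wild type arrays, replicate 1 was the highest for 25 of the 42 genes (59.5%, beside 31.1% of all genes) and replicate 2 the lowest for 29 (69.0%, beside 29.9%). Of the Gata6-KO arrays, replicate 3 was the lowest for 23 (54.8%, beside 37.2%). Over all 6 arrays Gata6-WT replicate 1 held the highest value of 20 members. The median deviation from the gene mean was 0.33 on Gata6-WT replicate 1, 0.15 on replicate 3 and -0.18 on replicate 2. On Gata6-KO replicates 1, 2 and 3 it was 0.00, -0.05 and -0.20. Gata6-WT replicate 2 thus lay among the Gata6-KO arrays, and the other wild type arrays above them.

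**Figure D2:**
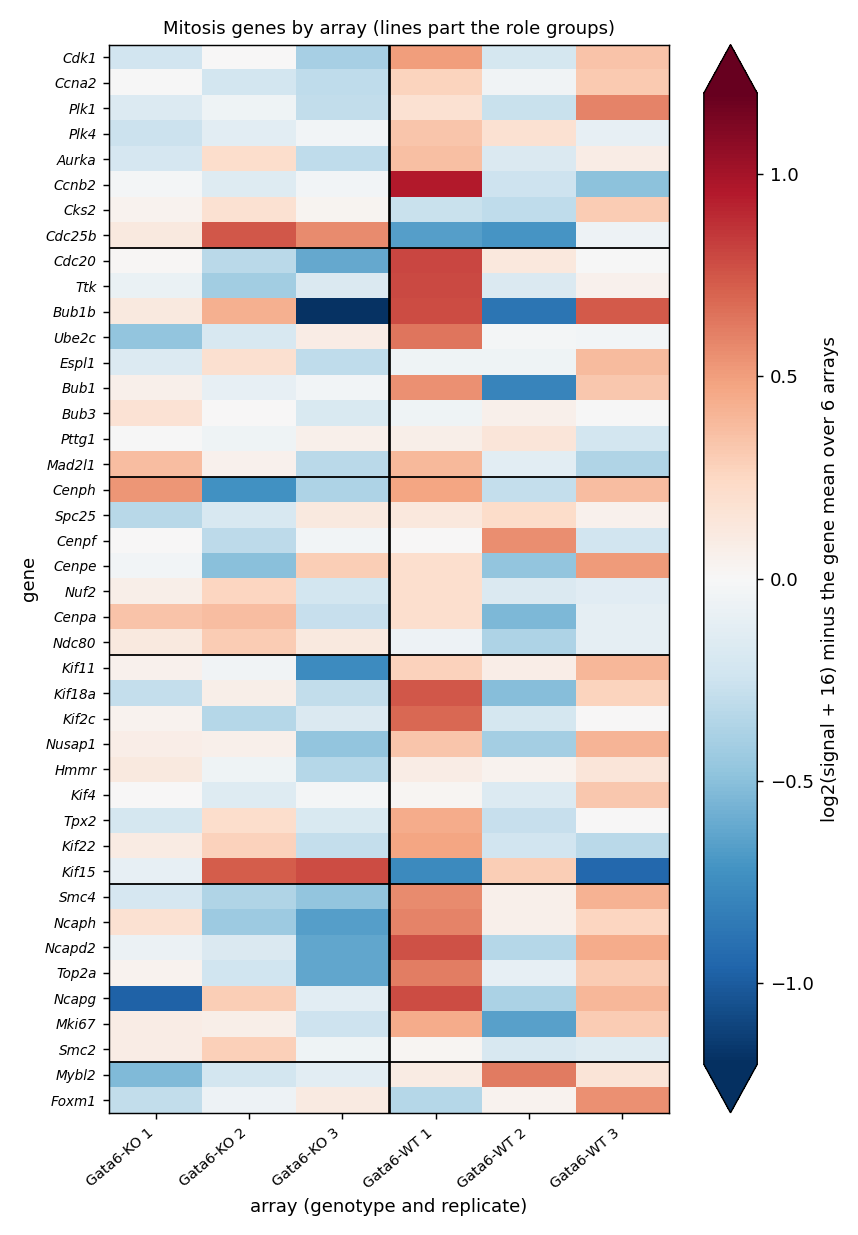
Deviation of each mitosis gene on each array, as log2(signal + 16) minus the gene's mean over the 6 arrays, with genes in rows by role and arrays in columns. Gata6-WT replicate 1 is mostly red, with a median deviation of 0.33, and Gata6-WT replicate 2 and Gata6-KO replicate 3 are mostly blue, with medians of -0.18 and -0.20.

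Among the cyclins and kinases that drive entry into mitosis, 1 of 8 tested genes rose and 0 fell (median -0.24). Cdc25b encodes a phosphatase that removes the inhibitory phosphates from CDK1 at the start of mitosis. Its signals were 482, 757 and 666 on Gata6-KO replicates 1, 2 and 3 and 274, 267 and 427 on Gata6-WT. Every Gata6-KO array was above every wild type array, and the lowest Gata6-KO value, replicate 1, was close to the highest wild type value, replicate 3. The rise was 1.93-fold (log2 0.95 ± 0.23 SE, n = 3, adjusted p = 0.0269). Its call was lost when any 1 of 4 arrays was left out: Gata6-KO replicate 2 (adjusted p = 0.101) or 3 (0.0886), or Gata6-WT replicate 1 (0.0760) or 2 (0.0950). In the female-type arrays alone the adjusted p was 0.0547. Its 1 probe set on the array left no second reading.

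The other members of that group did not pass. Cdk1, the kinase at the centre of mitotic entry, had 223, 266 and 197 in Gata6-KO and 382, 226 and 341 in Gata6-WT. The groups overlapped through Gata6-WT replicate 2, and the log2 difference was -0.42 (95% interval -0.93 to 0.08, adjusted p = 0.285). Cyclin A2, Ccna2, which partners CDK1 and CDK2, was at 187 ± 22.0 against 245 ± 33.8, and its other probe set also lay lower (log2 -0.35 and -0.43, neither passing). Cyclin B2, Ccnb2, was nearly level on the Gata6-KO arrays at 162 to 179 but had 367 on Gata6-WT replicate 1 and 151 and 125 on the others. Plk1, the polo-like kinase of spindle assembly, had 106, 116 and 95.5 in Gata6-KO and 139, 97.8 and 191 in Gata6-WT (log2 -0.34, interval -0.96 to 0.27). Aurka, a spindle pole kinase, and Plk4, which starts centriole duplication, had differences of -0.19 and -0.28. Cks2, a small CDK-binding subunit, stood apart from these with a difference above 0, at 1302 ± 77.9 against 1174 ± 297 (log2 0.17, interval -0.21 to 0.55).

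For the spindle checkpoint and the step into anaphase, 0 of 9 genes passed the test, and 8 of 9 differences lay below 0 (median -0.19). Cdc20, the activator of the anaphase promoting complex that the checkpoint restrains, had the lowest difference of the group. Its signals were 287, 224 and 180 in Gata6-KO and 505, 310 and 282 in Gata6-WT. The groups overlapped by a single array each, and the log2 difference was -0.61 ± 0.25 (interval -1.18 to -0.04, adjusted p = 0.170). Its other tested probe set gave -0.14, so the probe sets did not show the same size. Ube2c, the E2 enzyme of that complex, had 160, 199 and 244 against 366, 225 and 223, a gap made by Gata6-WT replicate 1.

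The checkpoint proteins proper were measured with unequal precision. Bub3, which docks the checkpoint at kinetochores, was at 3847 ± 468 and 3837 ± 152 (log2 -0.00, interval -0.26 to 0.26). Pttg1, securin, which guards the cohesin protease separase until anaphase, was at 6122 ± 237 and 6156 ± 800 (log2 -0.00, interval -0.27 to 0.26). For these 2 probe sets the interval leaves out any change beyond 1.5-fold. Both end in _s_at, and whether they read only these genes was not examined. Dimmer tested probe sets of Bub3 were less precise, with intervals as wide as -0.86 to 1.26. Espl1, separase itself, was at 1833 ± 338 and 2087 ± 376 (log2 -0.19). Mad2l1, which binds CDC20 directly, had 411, 325 and 246 in Gata6-KO and 415, 285 and 241 in Gata6-WT, nearly the same values on both sides (log2 0.07, interval -0.48 to 0.62). The kinase genes Bub1, Bub1b and Ttk had low, scattered signals between 30.6 and 166 over the 6 arrays. Their differences were -0.05, -0.43 and -0.45, with intervals as wide as -1.63 to 0.78 for Bub1b.

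Centromere and kinetochore genes had 0 of 7 called, with 3 differences above and 4 below 0 (median -0.16). Cenpa, the histone H3 variant that marks centromeres, had 831, 847 and 534 in Gata6-KO and 752, 442 and 602 in Gata6-WT. The groups overlapped, and the difference was 0.30 (interval -0.22 to 0.82). Its second tested probe set gave 1.32 with an adjusted p of 0.131, from 134, 202 and 201 against 135, 76.1 and 16.6, so there the replicates 1 were level and the others apart. Ndc80, the microtubule-binding subunit of the outer kinetochore, had 80.8, 94.3 and 81.0 against 69.3, 52.9 and 66.8. These groups did not overlap, but the difference of 0.36 did not pass (adjusted p = 0.473). Its complex partners Nuf2 and Spc25 lay at 0.07 and -0.27, so the 3 measured subunits did not share a sign.

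Cenph, a subunit of the inner kinetochore network, had the lowest difference of that group, -0.38, from 127, 44.2 and 61.1 against 123, 65.9 and 113. Cenpe, the kinetochore motor, and Cenpf, a large kinetochore protein of late cycle, had signals of 57.3 to 141 and differences of -0.16 and -0.22. All 7 intervals of the group included 0. That of Cenph, with a lower bound of -1.24, was the only one to reach beyond a 2-fold change.

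Spindle motors and spindle proteins had 0 of 9 called (median -0.19), with the extremes of the group at Kif15 and Kif11. Both are motors that push spindle poles apart. Kif11 had 99.4, 91.8 and 50.0013 in Gata6-KO and 119, 101 and 131 in Gata6-WT. Its groups did not overlap, and the log2 difference was -0.50 (interval -1.17 to 0.17, adjusted p = 0.340). Its other tested probe sets also lay below 0, from -0.79 to -0.10. Kif15 had 54.9, 110 and 115 in Gata6-KO and 28.6, 77.2 and 23.6 in Gata6-WT, a difference of 0.94 (interval -0.03 to 1.91, adjusted p = 0.212). Gata6-WT replicate 2 was above Gata6-KO replicate 1 there, and signals this low are close to the filter at 47.5.

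The other motors showed no called change either. Kif18a, which damps chromosome movement, Kif2c, which depolymerises microtubules, and Kif4, a chromosome-bound motor, had differences of -0.34, -0.32 and -0.12. The brightest Kif2c probe set was the lowest of 4 tested, which ran up to 0.52. Kif22, a chromokinesin, was at 876 ± 171 against 860 ± 282 (log2 0.05). Tpx2, which activates Aurora A, was read by 4 tested probe sets whose differences ran from -0.13 to 0.79, none past the threshold. Nusap1 and Hmmr, microtubule-associated proteins of the spindle, lay at -0.22 and -0.19.

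Condensin subunits and mitotic chromosome proteins had the lowest median of the groups with more than 2 tested genes, -0.55, with 1 of 7 genes lower and 0 higher. Smc4 encodes the ATPase subunit that condensins I and II share with SMC2. Its signals were 1720.1, 1538 and 1424 on Gata6-KO replicates 1, 2 and 3 and 2949.6, 2067 and 2663 on Gata6-WT. All Gata6-KO arrays were below all wild type arrays, and Gata6-WT replicate 2 was again the lowest of its group. The fall was 1.62-fold (log2 -0.70 ± 0.15 SE, n = 3, adjusted p = 0.0169). Its second probe set passed as well (log2 -0.50, adjusted p = 0.0436), and the third, at -0.20, did not (adjusted p = 0.650). Leaving out Gata6-KO replicate 2 or 3, or Gata6-WT replicate 1, moved the adjusted p of the first to 0.0583, 0.0623 and 0.0511, past the threshold. It was 0.0709 in the female-type arrays alone and 0.0813 for the mean of the gene's probe sets.

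Smc2, the partner of SMC4 in the same ring, did not fall: it had 664, 763 and 602 in Gata6-KO and 633, 542 and 558 in Gata6-WT, a difference of 0.22 (interval -0.11 to 0.55), and all 4 of its tested probe sets lay above 0. By the brightest probe sets, the interval of Smc2 and that of Smc4, -1.03 to -0.36, do not meet. That of the third Smc4 probe set, -0.72 to 0.32, overlaps the interval of Smc2. The difference between the genes was not tested. The non-SMC subunits of condensin I lay below 0 without passing. Ncaph had 466, 299 and 253 against 627, 429 and 493 (log2 -0.61, interval -1.14 to -0.08, adjusted p = 0.141), and its other probe set gave -0.24. It passed with a term for sex type (adjusted p = 0.0456) and without Gata6-KO replicate 1 (log2 -0.85, adjusted p = 0.0433). Ncapd2 was at 159 ± 33.8 against 254 ± 96.4 (log2 -0.58), with its other tested probe set at -0.005. Ncapg was at 46.9 ± 25.7 against 74.1 ± 33.96 (log2 -0.53).

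The usual markers of cycling cells, Mki67 and Top2a, were not called, and the genotypes overlapped for both. Mki67, which coats mitotic chromosomes and marks cells out of G0, had 469, 462 and 369 in Gata6-KO and 604, 274 and 549 in Gata6-WT. The Gata6-KO values all lay inside the range of the wild type values, and the log2 difference was -0.06 (interval -0.67 to 0.54, adjusted p = 0.918). Top2a, the topoisomerase that untangles sister chromatids, had 439, 357 and 270 against 660, 396 and 529. Its groups overlapped through Gata6-KO replicate 1 and Gata6-WT replicate 2, with a difference of -0.55 ± 0.23 (interval -1.06 to -0.03, adjusted p = 0.173). Before adjustment the interval of this Top2a probe set, unlike that of Mki67, thus lay wholly on the negative side, though the 2 intervals overlap. The second tested Top2a probe set gave -0.17 (interval -1.07 to 0.73). By the brightest probe sets the 95% intervals of Mki67 and Top2a span 1.21 and 1.03 on the log2 scale.

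**Figure D3:**
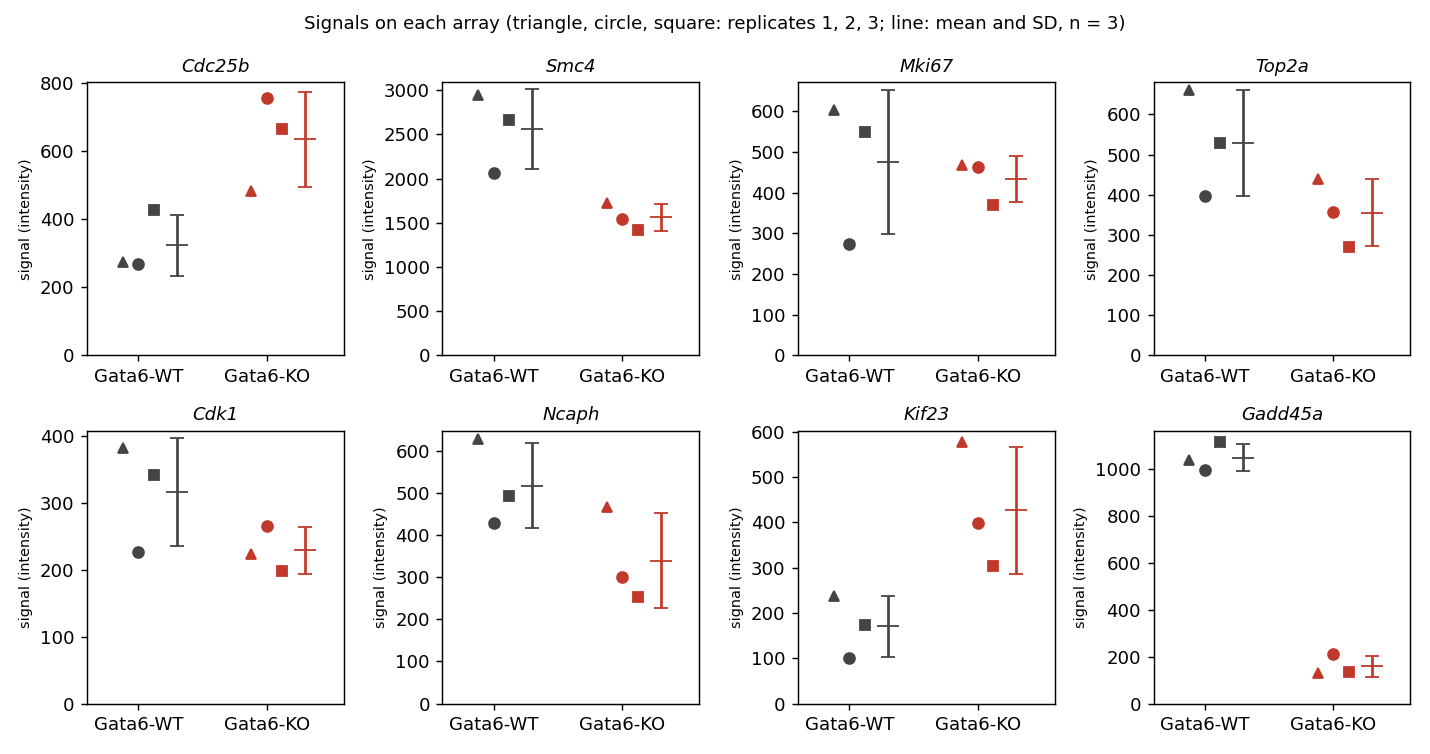
Linear probe set signals on each array for 6 mitosis genes and for Kif23 and Gadd45a, with Gata6-WT in grey and Gata6-KO in red; markers are replicates 1, 2 and 3, and lines are the mean and SD (n = 3). The genotypes do not overlap for Cdc25b, Smc4, Kif23 and Gadd45a, whereas the 3 Gata6-KO values of Mki67, 369 to 469, lie inside the wild type range of 274 to 604.

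The transcription factors of the programme, Foxm1 and Mybl2, were not called. Foxm1 had 141, 169 and 192 in Gata6-KO and 137, 183 and 266 in Gata6-WT, with full overlap and a difference of -0.17 (interval -0.75 to 0.42). Mybl2 had 35.2, 47.6 and 51.7 against 63.3, 98.0 and 66.4, which did not overlap, with a difference of -0.59 (interval -1.33 to 0.16, adjusted p = 0.312). Its signals were near the filter, and its second probe set lay below it.

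Several probe sets read the same gene for 22 members, which gives a check within the arrays. For 14 genes all tested probe sets had differences of 1 sign, 11 of them below 0 and 3 above 0 (Cenpa, Cks2 and Smc2), and for 8 the signs were mixed. The median gap between the highest and lowest difference of a gene was 0.37, which is larger than the median difference of the members. Of all 78 tested probe sets 54 lay below 0. Called were 1 higher and 2 lower, those of Cdc25b and Smc4, where 5.12% and 5.67% of all probe sets were called higher and lower. Probe sets ending in _x_at, whose probes can also bind related transcripts, represented 5 genes, among them Cdc20 and Ncaph. In both, the other probe set gave a smaller difference. Kif2c, Kif22 and Hmmr, the rest of these genes, had mixed signs. Their tested probe sets ran from -0.32 to 0.52, -0.14 to 0.17 and -0.27 to 0.04.

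Other genes of the same pathways were examined through 8 lists. Over their 129 tested genes 4 were higher and 5 lower, 6.98% beside 13.1% of all genes, with a median of -0.13. At an unadjusted limma p under 0.05, 11 were higher and 21 lower, beside 1489 and 1993 of all 12511 genes. In the list of other kinetochore and centromere genes 1 of 22 passed (3 unadjusted). It was Cenpq, an inner kinetochore subunit, which fell from 386 ± 55.2 to 178 ± 29.9 (log2 -1.06, adjusted p = 0.00798). Of other spindle and checkpoint genes 0 of 19 passed by limma (2 at an unadjusted p under 0.05), with the smallest p at Kntc1, at 71.0 ± 25.03 against 142 ± 51.1 (adjusted p = 0.163). In the anaphase promoting complex 0 of 17 passed (1 unadjusted), with the smallest p at Anapc15, at 535 ± 15.8 against 368 ± 80.6 (log2 0.54, adjusted p = 0.0854). Among cohesin and condensin II genes 1 was higher and 6 lower at an unadjusted limma p under 0.05. Smc1a, a cohesin ATPase, was the 1 of 13 called (log2 -0.54, adjusted p = 0.0318). Its other probe sets lay at 0.28 and -0.03, so that call rests on 1 probe set. It was lost without Gata6-KO replicate 1 or 3 or Gata6-WT replicate 2 or 3, with adjusted p of 0.0698 to 0.111.

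Cytokinesis genes had 2 of 13 higher and 1 lower (4 and 1 unadjusted), and the called genes belong to 2 complexes of the late spindle. Kif23, the motor subunit of centralspindlin, rose from 237, 101 and 173 in Gata6-WT to 579, 399 and 303 in Gata6-KO (log2 1.27, adjusted p = 0.0308), with no overlap. Its second tested probe set passed as well, with a rise of 1.83 (adjusted p = 0.0392). Racgap1, the other subunit of centralspindlin, fell from 468 ± 21.7 to 305 ± 28.4 (log2 -0.60, adjusted p = 0.0339). Its second probe set also passed, with a fall of 1.10 (adjusted p = 0.00854). Incenp, the scaffold of the chromosomal passenger complex, rose from 2647 ± 31.3 to 3992 ± 220.1 (log2 0.59, adjusted p = 0.00531), and its other 3 tested probe sets did not pass. Of those, 2 had every Gata6-KO array above every wild type array, with differences of 0.51 (adjusted p = 0.0687) and 1.59 (adjusted p = 0.0794), and the last was at 0.01. Leaving out Gata6-KO replicate 1 or 2 or Gata6-WT replicate 2 or 3 undid the call of the brightest Kif23 probe set. The adjusted p was then 0.0637 to 0.103. The call of the brightest Racgap1 probe set was lost without any 1 of the 6 arrays (adjusted p of 0.0540 to 0.109). No such refit is given for their second probe sets.

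Among G2 regulators 1 of 11 was higher and 1 lower (2 and 1 at an unadjusted limma p under 0.05). Gadd45a, a stress-induced inhibitor of CDK1, had 1039, 998 and 1115 in Gata6-WT and 132, 211 and 134 in Gata6-KO, with a wide gap between the groups. It fell 6.22-fold (log2 -2.64 ± 0.19, adjusted p = 4.92e-05), the largest change in these lists, and was called in all 19 refits. Ccng1, cyclin G1, rose from 3700 ± 145 to 5662 ± 317 (log2 0.61, adjusted p = 0.00436). In the DREAM and MuvB list 1 of 11 was higher (1 higher and 1 lower unadjusted). It was E2f5, an E2F of the repressor kind, from 411 ± 15.5 to 973 ± 242 (log2 1.18, adjusted p = 0.00427). Its other 2 probe sets also rose. In DNA replication 1 of 23 was lower, the licensing factor gene Cdt1 (log2 -0.95, adjusted p = 0.0101). At an unadjusted limma p under 0.05, 1 gene of that list was higher and 8 were lower. The median of that list was -0.16, beside -0.21 for the mitosis genes.

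**Figure D4:**
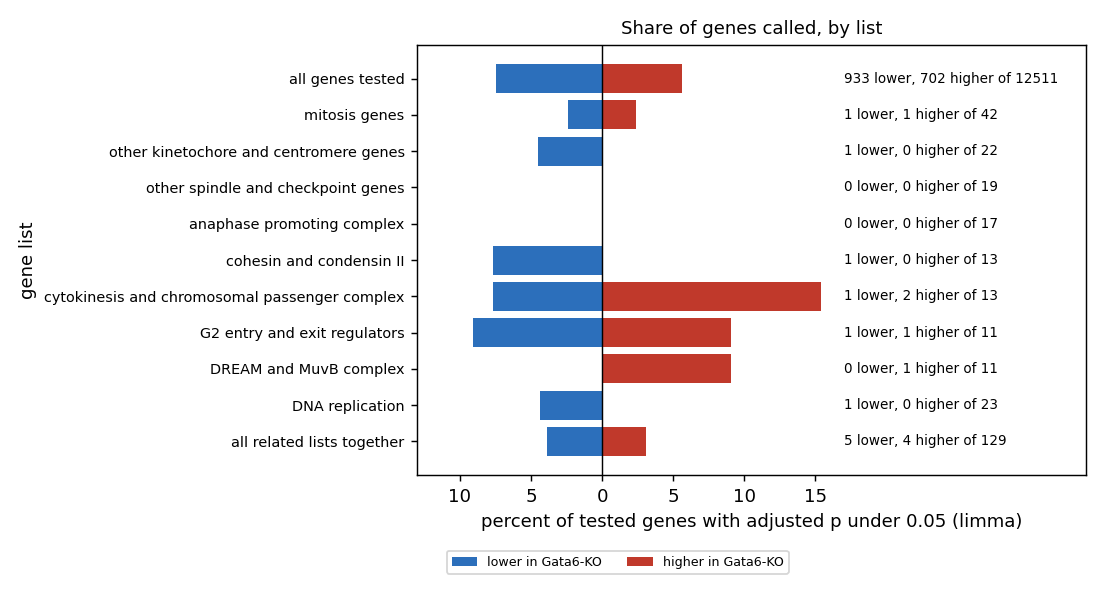
Share of tested genes called lower (blue, left) or higher (red, right) in Gata6-KO at an adjusted p under 0.05, for all genes, the 42 mitosis genes and 8 lists of related genes, with counts at the right. The mitosis genes have 1 lower and 1 higher, beside 933 and 702 of all 12511 genes.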

How the data were processed

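Total RNA of 3 Gata6-KO and 3 Gata6-WT pools was labelled with biotin, 1 array per pool. The deposited values are linear intensities, 1 signal per probe set. The submitters' processing notes name MAS5 and affy, with no version. Trimmed by 2% at each end, the mean signal was 500 on each array, so the authors' intensity scale was common to the arrays. MAS5-type signals are noisy when low, and no detection calls were used. The number of arrays limits the precision.

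Signals were converted to log2(signal + 16), without further normalization. The 64 control probe sets were not used. Testing was limited to mean values over the 40th percentile (a signal of 47.5). The test was limma 3.58.1 in R 4.3.3 (lmFit, eBayes with trend), two-sided, threshold 0.05. Fold changes understate the change of low signals. Symbols came from the array annotation, and 34754 of 34958 single-symbol probe sets matched a RefSeq gene of GRCm38.p6.

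The members and lists were chosen with earlier results of these data known, so no test over a list was made. Signals on each array are given for Mki67, Top2a, Cdk1, Plk1 and Foxm1, members past the threshold, the highest and lowest difference of each role group, and, chosen after their values were seen, Ccnb2, Ube2c, Cenpa, the second Cenpa probe set and Ncaph. From related lists up to 4 called genes were named, or the one with the smallest p. The labels call the pools biological replicates. The fit was tested on simulated arrays with 50 changes of each size. It recovered 0% of changes of log2 0.5, 28% of log2 1, 80% of log2 2 and 88% of log2 3. Of its 100 calls 2 were false. Far fewer probe sets were changed there than the 2916 called in the data, which makes the adjustment stricter, so these shares do not carry over. In the data some differences of about log2 0.5 to 0.6 were called, such as the second Smc4 probe set (-0.50) and Incenp (0.59). Alternatives were other pseudocounts, filters, scalings, thresholds, a fit without trend, array weights, a replicate block, a sex-type term, the female-type arrays alone, averaging over the probe sets of each gene, and omission of each array. Centring on the tested probe sets was added after seeing the data. Figures used matplotlib 3.10.9 in Python 3.11.15.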

Additional observations from a re-analysis of the deposited data

How the results depend on the processing

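Smc4 and Cdc25b kept their direction in all 19 refits with another setting or fewer arrays, with log2 differences of -0.84 to -0.47 and 0.81 to 1.16, and each was called in 13 of them. Without 1 array 0 to 1 mitosis genes were higher and 0 to 2 lower, with medians of -0.36 to -0.14. Probe sets then numbered 822 to 1240 higher and 939 to 1236 lower, and related genes 3 to 5 in each direction. Without the mean-variance trend 0 mitosis genes were called in either direction, with 655 probe sets higher, 804 lower and 2 related genes lower. In the female-type arrays the counts were 0 and 0 mitosis genes, 787 and 867 probe sets and 3 related genes lower. At an adjusted p under 0.01 they were 0 and 0, 582 and 669, and 2 related genes lower, and for changes of at least 2-fold 0 and 0, 553 and 703, and 2 related genes in each direction. These last counts are smaller by construction. With a sex-type term 2 mitosis genes were lower, and with probe sets averaged by gene 0 mitosis genes and 3 related genes were lower. The cause of these shifts was not tested. Scaling moved the median of all genes from -0.04 to -0.08 (median scaling) and -0.03 (quantile), and that of the mitosis genes from -0.21 to -0.25 and -0.21. Centring each array on the tested probe sets, chosen after seeing the data, gave 0.02 and -0.15, with 3 related genes lower. The split of called probe sets into higher and lower was 1113 and 1717 after scaling on the median of all probe sets and 1638 and 1256 after that centring, beside 1384 and 1532. Deviations of arrays with the same replicate number correlated at 0.13, 0.07 and 0.07 for numbers 1, 2 and 3, each array best with its own number, but not above 0.1 in every pair, so the number was not taken to pair the samples. With the replicate block 1 mitosis gene was higher and 1 lower (1500 and 1576 probe sets, 4 and 6 related genes).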
